A study of Mus musculus with 30 samples.

Results

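Transcripts of the interleukin-1 receptors Il1r1 and Il1r2, the interleukin-18 receptor chain Il18r1 and the protease caspase-1 (Casp1) were followed in sorted CD4+ T cells of mice on 30 one-colour Affymetrix MG-U74Av2 arrays. The members were every probe set that named 1 of these genes as its only symbol. They comprised 4 genes on 5 probe sets, out of 8251 genes on 10833 probe sets with a single symbol. Il1r2 was measured by 2 probe sets and each of the other genes by 1. The brighter Il1r2 probe set, called its main one here, carries the suffix "_f_at", which marks probes that can also match related sequences, so the second Il1r2 probe set is given beside it. Values without a probe set named are those of the main one.

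All cells came from NOD mice carrying the BDC2.5 T cell receptor transgene, an islet-reactive receptor that biases the T cell repertoire. Pancreatic cells of set 1 came from mice given IgG and were sorted as Treg (CD4+CD25+CD69-, 3 arrays) or Teff cells (CD4+ with CD25 low or negative and CD69 positive or negative, 5 arrays), with no age in the labels. Set 2 held pancreatic Treg (CD4+CD25+, 3 arrays) and Teff cells (CD4+CD25-, 3 arrays) from mice of 26 days given an antibody to the costimulatory receptor ICOS. It also held 2 arrays of IgG Treg cells (CD4+CD25+CD69-), the first from mice of 4 weeks and the other of 26 days. The node set came from mice of 4 weeks, with no antibody treatment in its labels. Mesenteric nodes gave 5 arrays of CD25+ and 3 of CD25- CD4+ cells, and peripheral nodes gave 3 of each. The CD69 gate thus differed between IgG and anti-ICOS cells, and tissue coincided with the set of records, so levels are tested only within a set.

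Il1r1 binds interleukin-1 and, with the accessory chain Il1rap, signals through Myd88 to NF-kB. Il1r2 binds the same cytokine but has no signalling domain, and acts as a decoy on the cell surface or in shed form. Il18r1 is the ligand-binding chain of the interleukin-18 receptor, known on Th1 cells and on a part of the regulatory T cells. Casp1 is the protease of the inflammasome that cuts the precursors of interleukin-1 beta and interleukin-18 to their active forms.

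Il1r2, Il1r1, Il1rl2, Il1rl1, Il18r1 and Il18rap are neighbours in this order on chromosome 1, while Casp1 lies beside Casp4 on chromosome 9. The promoter windows of the decoy and of the signalling receptor are printed because these neighbouring genes bind the same ligand and their Treg contrasts lay furthest apart between pancreas and nodes, though that of Il1r1 did not pass the test. Each window runs from 250 bases before to 50 bases after an annotated start site, from RefSeq on GRCm38.p6, and all lie on the plus strand. Il1r2 had 1 window, chr1:40085843-40086142. Il1r1 had windows at chr1:40224830-40225129 (window 1) and chr1:40266336-40266635 (window 2). Capitals mark matches to any of 6 motifs searched on both strands.
Il1r2: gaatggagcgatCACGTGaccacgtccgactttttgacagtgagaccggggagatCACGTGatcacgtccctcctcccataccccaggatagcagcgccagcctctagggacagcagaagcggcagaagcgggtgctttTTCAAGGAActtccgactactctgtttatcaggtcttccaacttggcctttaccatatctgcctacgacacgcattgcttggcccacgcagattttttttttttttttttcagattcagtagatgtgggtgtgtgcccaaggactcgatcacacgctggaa
Il1r1 window 1: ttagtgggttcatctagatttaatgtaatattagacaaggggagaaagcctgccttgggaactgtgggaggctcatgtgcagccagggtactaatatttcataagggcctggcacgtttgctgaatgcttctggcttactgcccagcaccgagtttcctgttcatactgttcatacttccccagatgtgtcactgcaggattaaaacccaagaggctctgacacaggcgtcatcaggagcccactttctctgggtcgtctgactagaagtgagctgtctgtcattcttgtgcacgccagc
Il1r1 window 2: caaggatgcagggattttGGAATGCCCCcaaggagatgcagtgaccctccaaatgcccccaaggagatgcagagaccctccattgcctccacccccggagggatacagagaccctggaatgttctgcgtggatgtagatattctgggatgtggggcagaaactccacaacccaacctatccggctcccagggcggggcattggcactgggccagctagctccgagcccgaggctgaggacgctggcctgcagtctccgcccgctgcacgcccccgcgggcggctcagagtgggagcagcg

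The Il1r2 window held the E-box CACGTG at 2 places and the STAT motif TTCNNNGAA at 1 place, with GC of 51.3%. Window 1 of Il1r1 held none of the motifs, and window 2, with GC of 63.3%, held 1 kappaB match. The other motifs searched were AP-1 (TGANTCA), NFAT (GGAAAA) and forkhead (GTAAACA). The E-box was added to the search after the Il1r2 window had been read. Of 32851 promoter windows of this length, 7.15% held the E-box, 8.30% the STAT motif, 8.46% the kappaB motif, 7.81% AP-1, 23.4% NFAT and 3.65% forkhead. The Casp1 window held 1 E-box. Window 3 of Il18r1 held the STAT motif at 2 places and NFAT at 1 place, and its windows 1 and 2 held none of the motifs. A match describes letters in the window and is no measurement of binding.

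The sort was visible in Il2ra, which encodes CD25. It was between 5.58 and 6.80 in the set 1 Treg arrays against 4.06 to 4.33 in Teff arrays, and between 5.32 and 6.23 in the node CD25+ arrays against 3.99 to 4.29 in CD25- arrays (log2 intensity). Treg replicate 3 of the anti-ICOS group stood apart, with Il2ra at 3.88 against 5.0 and 7.03 in the others of its group. IgG Treg replicate 1 of set 2 had the macrophage gene Lyz2 at 9.12, and the mean of its 11 macrophage and dendritic cell genes was 5.61 against 4.25 in replicate 2. Among node arrays, Lyz2 was 5.55 in peripheral CD25+ replicate 2 and 4.81 in mesenteric CD25+ replicate 4. It was also raised in peripheral CD25- replicate 2, at 4.21 against 3.12 and 2.94 in the others of that group. In mesenteric CD25+ replicate 4 other macrophage genes were mixed, with Csf1r the highest of its group (4.41) and Cd68 the lowest (4.74). Mesenteric CD25+ replicate 2 carries a CD25- source name in the labels, but its Il2ra of 5.50 lay within the CD25+ range. The peripheral arrays carry a mesenteric tissue entry, and the titles were followed. IgG Treg replicate 3 of set 1 and replicate 2 of set 2 share a label number and had r = 0.997 across probe sets, so they were counted as 1 sample in joint fits. In bulk samples a smaller share of expressing cells and less RNA per cell cannot be told apart.

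Il1r2, the decoy receptor, was the member with the largest difference between Treg and Teff cells in the pancreas. In set 1 its value was 6.54, 8.24 and 8.38 in the 3 Treg arrays, on the log2 intensity scale used for all levels below. In the 5 Teff arrays it was 5.05, 4.55, 4.96, 4.89 and 4.69. Every Treg array lay above every Teff array, and Treg replicate 1 was the lowest of its group. The mean was 7.72 ± 1.02 (SD, n = 3) in Treg cells and 4.83 ± 0.21 (SD, n = 5) in Teff cells. Il1r2 was 7.38-fold higher in Treg cells (log2 difference 2.88, SE 0.35, limma adjusted p = 0.00129). This SE rests on a spread pooled over both groups, though the Treg arrays spread more, so it may be too small.

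The other Il1r2 probe set gave the same direction with a smaller difference. By the second probe set, the Treg arrays had 5.02, 6.68 and 6.25, and the Teff arrays 4.66, 4.58, 4.55, 4.78 and 4.46. These groups did not overlap either, and replicate 1 was again the lowest Treg array. The log2 difference was 1.38 (SE 0.29, limma adjusted p = 0.0211). It passed in 4 of the 8 fits that left out 1 array, at values from 1.03 to 1.86. The adjusted p was 0.0795 without Treg replicate 2, 0.0593 without Treg replicate 3, 0.0521 without Teff replicate 2 and 0.0574 without Teff replicate 5. In set 1, 6.69% of all probe sets passed the test in either direction and 3.93% passed as higher in Treg cells, while 4 of the 5 member probe sets passed, all as higher. Over all probe sets, 8.53% had every Treg array above every Teff array, which held for the same 4 member probe sets. Both Il1r2 probe sets are among these 4. The members were chosen with earlier results of these data known, so member counts here and below are a description and no test of the set.

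The label numbers of the arrays fall into runs, and the Il1r2 difference was 1.73, 3.27 and 3.58 within the 3 runs of set 1, each with 1 Treg array. The log2 actin 3'/5' ratio, a measure of RNA integrity, also moved with the sort, at 3.69, 4.53 and 3.02 in Treg arrays and 2.38 to 3.11 in Teff arrays. With this ratio as a covariate the Il1r2 difference was 2.74 (SE 0.59) and no longer passed (limma adjusted p = 0.0909). For the second probe set it was then 1.08 (limma adjusted p = 0.573). Granulocytes and macrophages can carry Il1r2. None of 12 granulocyte and mast cell genes and none of 11 macrophage and dendritic cell genes passed in set 1. The mean of the granulocyte list was 4.54 to 4.78 in Treg arrays and 4.43 to 4.63 in Teff arrays, and that of the macrophage list 4.55 to 4.85 and 4.63 to 4.95. Of 8 B cell genes 3 rose in the Treg arrays, and the mean of that list was 5.53 to 5.66 against 5.22 to 5.42 in Teff arrays. The part of these cells in the Il1r2 difference was not tested.

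In set 2, Il1r2 was 7.84 and 7.99 in the 2 IgG Treg arrays. The first of them is the array with Lyz2 at 9.12, and the part of macrophages in its value was not tested. The second shares its label number with set 1 Treg replicate 3 (8.38) and is no further sample. Il1r2 was 7.66, 9.06 and 4.86 in the anti-ICOS Treg arrays. The anti-ICOS Teff arrays had 4.81, 4.69 and 5.11. The third anti-ICOS Treg array, the one low in Il2ra and in other Treg genes, lay within the range of the Teff arrays. The others lay above them. The Treg minus Teff difference was 2.32 (SE 0.88, 95% interval 0.31 to 4.33) and did not pass (limma adjusted p = 1). None of the 12422 probe sets passed in this comparison by limma, and 209 had an unadjusted p under 0.05. Without the third array the Il1r2 difference was 3.49 (SE 0.38, limma adjusted p = 0.0376). It was 2.91 and 3.95 within the runs that held both sorts, and 3.35 with the run as a block (limma adjusted p = 0.0219), and the third array lay in neither of these runs. By the second probe set the anti-ICOS Treg arrays had 6.26, 7.16 and 4.58 and the Teff arrays 4.85, 4.26 and 4.72, with the same array low.

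**Figure D1:**
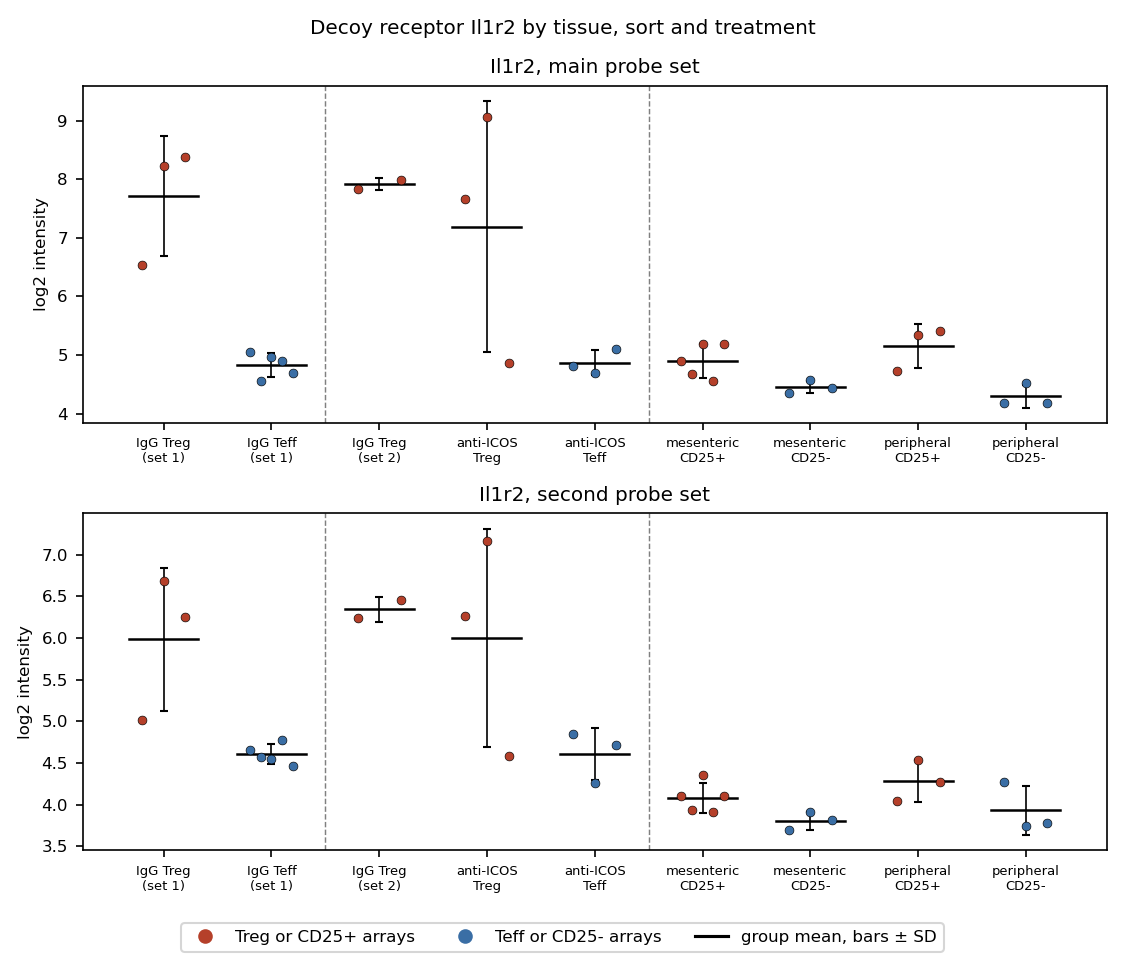
Log2 intensity of Il1r2 by both probe sets in each of the 9 groups. Points are arrays, horizontal lines group means and bars the SD, and dashed lines separate sets 1 and 2 and the lymph node set, which were normalized separately. Pancreatic Treg arrays sit between 6.54 and 9.06 by the main probe set except 1 anti-ICOS array at 4.86, and the node CD25+ arrays between 4.55 and 5.41.

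In lymph nodes the Il1r2 differences between CD25+ and CD25- cells were below 1 on the log2 scale. In mesenteric nodes the 5 CD25+ arrays had 4.89, 4.67, 5.19, 4.55 and 5.18, and the CD25- arrays 4.36, 4.57 and 4.44. The groups overlapped by the lowest CD25+ array, replicate 4. The difference was 0.45 (SE 0.18, 95% interval 0.06 to 0.83) and did not pass (limma adjusted p = 0.128). In peripheral nodes the CD25+ arrays had 4.72, 5.35 and 5.41, and the CD25- arrays 4.19, 4.53 and 4.19. Here the groups did not overlap.

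The peripheral difference was 0.86 (SE 0.20, 1.81-fold, limma adjusted p = 0.0169). It rested on each of several arrays, with an adjusted p of 0.0594 without CD25- replicate 1 and 0.0673 without CD25- replicate 3. The limma adjusted p was 0.0813 without CD25+ replicate 2, the CD25+ array with raised Lyz2, and 0.0636 without CD25+ replicate 3. CD25- replicate 2, also raised in Lyz2, had the highest Il1r2 of the CD25- arrays (4.53). The second probe set did not pass in either node, with differences of 0.28 in mesenteric nodes (limma adjusted p = 0.265) and 0.36 in peripheral nodes (limma adjusted p = 0.226). It was a low signal there, with 31.4% to 40.4% of probe sets at or below it by group mean. For the main probe set this share was 41.5% to 58.4%. The macrophage and dendritic cell list averaged 4.26 to 4.70 in peripheral CD25+ arrays and 4.27 to 4.43 in CD25- arrays. Its part in the result was not tested. The node arrays appeared to list their control probe sets in a different sequence from the pancreatic arrays, and their actin ratio rests on reordering the controls by name. Across the 66 controls the node and set 1 means had r = 0.254 as stored and r = 0.952 after reordering. The actin ratio was 2.76 to 3.30 in peripheral CD25+ and 2.32 to 2.70 in CD25- arrays, and with it as a covariate the difference was 1.00 (limma adjusted p = 0.0953). Within the 2 runs of node arrays the peripheral difference was 0.85 and 0.88, and the mesenteric one 0.32 and 0.54.

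The difference between tissues was then tested as an interaction, since tissue and set coincide in the levels. Set 1 and the lymph node arrays were normalized together, and the mean of both node contrasts was taken from the pancreatic contrast. On this joint scale Il1r2 was 7.55 ± 1.05 (SD, n = 3) in pancreatic Treg and 4.61 ± 0.22 (SD, n = 5) in pancreatic Teff cells. In mesenteric nodes it was 5.01 ± 0.28 (SD, n = 5) in CD25+ and 4.61 ± 0.12 (SD, n = 3) in CD25- cells, and in peripheral nodes 5.27 ± 0.40 and 4.43 ± 0.23 (SD, n = 3 each). By this main probe set the Teff and CD25- means lay between 4.43 and 4.61 in all 3 tissues, and the pancreatic Treg mean stood above every other group mean. By the second probe set the baselines differed, at 4.40 in pancreatic Teff, 3.94 in mesenteric CD25- and 4.06 in peripheral CD25- cells. That Teff mean lay above the second probe set's CD25+ means of 4.19 in mesenteric and 4.38 in peripheral nodes. The pancreatic Treg mean was again the highest, at 5.76.

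The Il1r2 contrast was 2.32 larger in the pancreas than in the nodes on the log2 scale (SE 0.37, 95% interval 1.54 to 3.09, limma adjusted p = 0.00255), a 4.98-fold difference between the ratios. The fit pools 1 spread over all groups, though the SD was 1.05 in pancreatic Treg arrays and 0.12 to 0.40 in the other groups. The SE and interval may therefore be too narrow and the adjusted p too small. The contrast passed with each of 22 arrays left out in turn, at values from 1.99 to 2.92. With the actin ratio as a covariate it was 2.20 (limma adjusted p = 0.0292). Against mesenteric nodes alone it was 2.53, and against peripheral nodes alone 2.10, and both passed (limma adjusted p = 0.0036 and 0.0385). By the second probe set it was 1.08 (SE 0.30) and did not pass (limma adjusted p = 0.0739). Of the 4 genes, Il1r2 was the one that passed, against 2.08% of all probe sets in either direction and 1.22% as larger in the pancreas. Gate, treatment with IgG and set of records differ between the pancreatic and node arrays together with the tissue and cannot be told apart from it.

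With the anti-ICOS arrays of set 2 as the pancreatic side, the difference was 1.62 (SE 0.71) and did not pass (limma adjusted p = 0.67). Without the anti-ICOS Treg array that was low in Il2ra it was 2.77 (SE 0.34, limma adjusted p = 0.00258), and for the second probe set 1.66 (limma adjusted p = 0.015). This last setting was chosen after seeing the data.

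**Figure D2:**
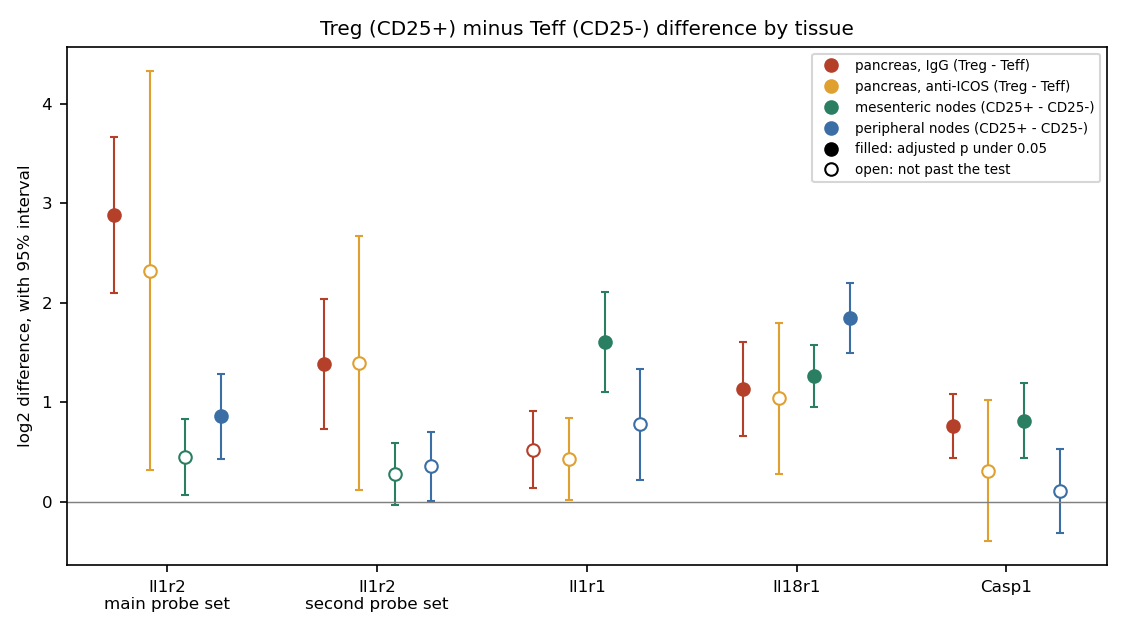
Log2 difference between Treg and Teff cells (pancreas) or CD25+ and CD25- cells (nodes) for each member probe set, with the 95% interval of limma. Filled points passed at an adjusted p under 0.05. Il1r2 is highest in the pancreas (2.88 in IgG-treated mice), Il1r1 in mesenteric nodes (1.60), and Il18r1 lies above 1.0 in all 4 comparisons.

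Il1r1, the signalling receptor, had its largest difference in mesenteric nodes. It was 5.50, 5.45, 4.82, 6.15 and 5.0 in the CD25+ arrays and 3.61, 3.88 and 3.86 in the CD25- arrays. No values overlapped, and CD25+ replicate 4 was the highest. The mean was 5.38 ± 0.51 (SD, n = 5) against 3.78 ± 0.15 (SD, n = 3), a 3.03-fold difference (log2 difference 1.60, SE 0.23, limma adjusted p = 0.000746). Without replicate 4, the array with raised Lyz2, it was 1.41 (limma adjusted p = 0.000496), and without replicate 2, the array with the conflicting source name, 1.58 (limma adjusted p = 0.00219). Within the runs it was 1.73 and 1.47. In mesenteric nodes 12.2% of all probe sets passed in either direction and 4.66% as higher in CD25+ cells, and 12.1% had no overlap with CD25+ cells higher. Of the 5 member probe sets 3 passed, those of Il1r1, Il18r1 and Casp1, all as higher. Of 8 B cell genes 2 also rose there, and the mean of that list was 5.46 to 5.66 in CD25+ and 5.15 to 5.45 in CD25- arrays, without overlap. None of the 11 macrophage and dendritic cell genes passed, with list means of 4.33 to 4.46 and 4.28 to 4.36. The part of these cells in the 3 differences was not tested.

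In peripheral nodes Il1r1 was 4.62, 4.57 and 4.36 in CD25+ arrays and 4.04, 3.74 and 3.45 in CD25- arrays. These groups did not overlap, but the difference of 0.78 (SE 0.26, 95% interval 0.21 to 1.34) did not pass (limma adjusted p = 0.0941). Without mesenteric CD25+ replicate 4, which sets part of the shared spread, it passed at the same value (limma adjusted p = 0.0232). Of all probe sets 7.69% passed in peripheral nodes, 1.8% as higher in CD25+ cells, and 9.63% had no overlap with CD25+ cells higher. The members that passed there were Il1r2 by its main probe set and Il18r1.

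Every mesenteric CD25+ array lay above every peripheral CD25+ array for Il1r1. The difference was 0.87 (SE 0.23, 95% interval 0.36 to 1.37) and did not pass (limma adjusted p = 0.579). Among all probe sets 0.0725% passed in that comparison, and 1.32% had no overlap with mesenteric cells higher. In CD25- cells the same difference was 0.04 (95% interval -0.52 to 0.60). The test of whether the CD25 contrast of Il1r1 differs between nodes gave 0.82 (SE 0.35, limma adjusted p = 1). In that interaction 0.00805% of all probe sets passed, and no member was among them.

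In the pancreas the Il1r1 difference between sorts did not pass. In set 1 Il1r1 was 4.48, 3.58 and 3.87 in Treg arrays and 3.33, 3.61, 3.49, 3.50 and 3.35 in Teff arrays. The groups overlapped, and the difference of 0.52 (SE 0.17, 95% interval 0.13 to 0.91) did not pass (limma adjusted p = 0.119). Without IgG Treg replicate 2, the lowest, it was 0.72 and passed (limma adjusted p = 0.0445). In set 2 it was 3.46 and 3.27 in IgG Treg, 3.59, 3.59 and 3.01 in anti-ICOS Treg and 2.89, 3.05 and 2.98 in anti-ICOS Teff arrays. The Il1r1 contrast was 0.69 smaller in the pancreas than in the nodes (log2 difference -0.69, SE 0.28, 95% interval -1.27 to -0.11), which did not pass (limma adjusted p = 0.253). Il1r1 was a low signal in the pancreas, where 17.2% to 27.5% of probe sets lay at or below it by group mean.

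The receptor pair was therefore placed array by array. The 16 Treg or CD25+ arrays carry 15 distinct samples by their labels, since 1 label number occurs in both pancreas sets. Those of the pancreas had Il1r1 between 3.01 and 4.48, and those of the nodes between 4.36 and 6.15. Il1r2 lay between 4.86 and 9.06 in the former and between 4.55 and 5.41 in the latter. Within set 1, the Treg array with the highest Il1r1 (replicate 1) had the lowest Il1r2. The mesenteric array with the highest Il1r1 (replicate 4) likewise had the lowest Il1r2 of its group. The anti-ICOS Treg array with low Il2ra was low for both receptors. These levels are a description, because the 3 sets were normalized separately.

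**Figure D3:**
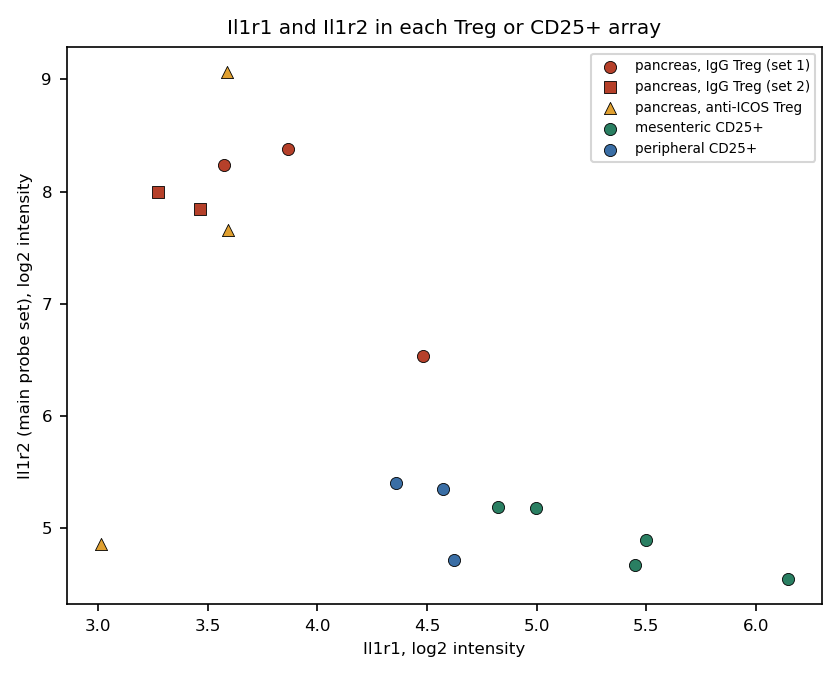
Il1r2 (main probe set, vertical) against Il1r1 (horizontal), both in log2 intensity, for each Treg or CD25+ array, coloured by tissue and treatment. Node arrays have Il1r1 from 4.36 up and Il1r2 at most 5.41. Pancreatic arrays have Il1r1 at most 4.48, which overlaps the node range, and Il1r2 from 6.54 up except 1 anti-ICOS array at 4.86. The label number found in both pancreas sets appears as 2 points. The sets were normalized separately.

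Il18r1 was higher in the pancreatic Treg cells of IgG-treated mice and in the CD25+ cells of both nodes. In set 1 the Treg arrays had 7.54, 6.42 and 7.33 and the Teff arrays 5.78, 5.91, 5.97, 6.05 and 6.10. They did not overlap, and Il18r1 rose 2.20-fold (log2 difference 1.14, SE 0.21, limma adjusted p = 0.0115). It still passed with the actin ratio as a covariate (1.70, limma adjusted p = 0.0242). In the runs of set 1 the difference was 1.69, 0.45 and 1.26.

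In mesenteric nodes the CD25+ arrays had 7.35, 7.11, 7.13, 7.57 and 7.10 and the CD25- arrays 6.09, 5.79 and 6.09. In peripheral nodes the CD25+ arrays had 7.20, 6.61 and 7.19 and the CD25- arrays 5.15, 5.22 and 5.10. Neither pair of groups overlapped. The differences were 1.26 (SE 0.15, limma adjusted p = 0.000155) and 1.84 (SE 0.16, limma adjusted p = 2.25e-05). Within the runs they were 1.29 and 1.18 in mesenteric and 1.79 and 1.96 in peripheral nodes. Both passed with each of the 14 node arrays left out in turn, at 1.16 to 1.32 and 1.74 to 2.04.

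Il18r1 was the member that differed between nodes in CD25- cells. Its 3 mesenteric CD25- values all lay above the 3 peripheral ones, by 0.83 (SE 0.16, 1.78-fold, limma adjusted p = 0.0381). In that comparison 0.451% of all probe sets passed, 0.209% as higher in mesenteric cells, and 4.43% had no overlap with mesenteric cells higher. The call held in 5 of the 14 fits that left out 1 array, with differences of 0.78 to 0.93, and it was 0.82 and 0.86 within the runs. It was lost without any 1 of the 6 CD25- arrays (limma adjusted p from 0.0547 to 0.223), and without mesenteric CD25+ replicate 1, 2 or 5 (limma adjusted p of 0.0603, 0.0562 and 0.0556). In CD25+ cells the difference between nodes was 0.25 (95% interval -0.06 to 0.56, limma adjusted p = 0.972). The CD25 contrast was 0.58 smaller in mesenteric than in peripheral nodes (log2 difference -0.58, SE 0.22), which did not pass (limma adjusted p = 1).

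Under anti-ICOS, Il18r1 was 7.25, 7.81 and 6.75 in Treg arrays and 6.86, 5.78 and 6.06 in Teff arrays, and 7.37 and 7.38 in the IgG Treg arrays of set 2. The Treg and Teff groups overlapped by Teff replicate 1 and the Treg array with low Il2ra. The difference was 1.04 (SE 0.33, 95% interval 0.28 to 1.79, limma adjusted p = 1). Against the nodes the pancreatic contrast of set 1 differed by -0.39 (95% interval -0.88 to 0.09, limma adjusted p = 0.473).

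Casp1 was higher in the pancreatic Treg cells of IgG-treated mice in set 1 and in mesenteric CD25+ cells. In set 1 it was 5.18, 4.67 and 4.96 in Treg arrays and 4.44, 4.12, 3.98, 4.34 and 4.01 in Teff arrays, with no overlap. It rose 1.70-fold (log2 difference 0.76, SE 0.14, limma adjusted p = 0.0117), and by 0.90, 0.70 and 0.79 within the runs. Casp1 was a low signal, with on average 47.0% of probe sets at or below it in Treg and 32.3% in Teff arrays. In the node groups this share was 27.1% to 43.4%, and no detection calls were used. With the actin ratio as a covariate the difference was 0.94 (SE 0.23) and did not pass (limma adjusted p = 0.143). Macrophages also express Casp1. The macrophage and B cell list means of set 1 are given above with Il1r2, and 3 of the 8 B cell genes rose with the sort. The part of these cells in the Casp1 difference was not tested.

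In mesenteric nodes Casp1 was 4.13, 4.19, 4.25, 5.05 and 4.48 in CD25+ arrays and 3.61, 3.49 and 3.71 in CD25- arrays. The groups did not overlap, and replicate 4, with raised Lyz2, was the highest. The difference was 0.81 (SE 0.18, 1.76-fold, limma adjusted p = 0.00833), 0.61 and 0.88 within the runs, and 0.66 without replicate 4 (limma adjusted p = 0.00433). Without CD25- replicate 2 the adjusted p was 0.0512. In peripheral nodes the CD25+ arrays had 3.67, 3.94 and 4.05 and the CD25- arrays 3.61, 3.86 and 3.86. These overlapped, with a difference of 0.11 (95% interval -0.31 to 0.53, limma adjusted p = 0.81).

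The difference between the nodes in CD25+ cells was 0.54 (SE 0.18), with every mesenteric array higher, and did not pass (limma adjusted p = 0.961). The interaction of node and CD25 was 0.71 (SE 0.26, limma adjusted p = 1). Under anti-ICOS Casp1 was 4.60, 4.95 and 4.26 in Treg and 4.85, 4.21 and 3.82 in Teff arrays, and it was 4.06 and 4.77 in IgG Treg arrays of set 2. The anti-ICOS difference of 0.31 (95% interval -0.40 to 1.02) did not pass (limma adjusted p = 1). The pancreatic contrast of set 1 differed from that of the nodes by 0.29 (95% interval -0.17 to 0.75, limma adjusted p = 0.595).

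**Figure D4:**
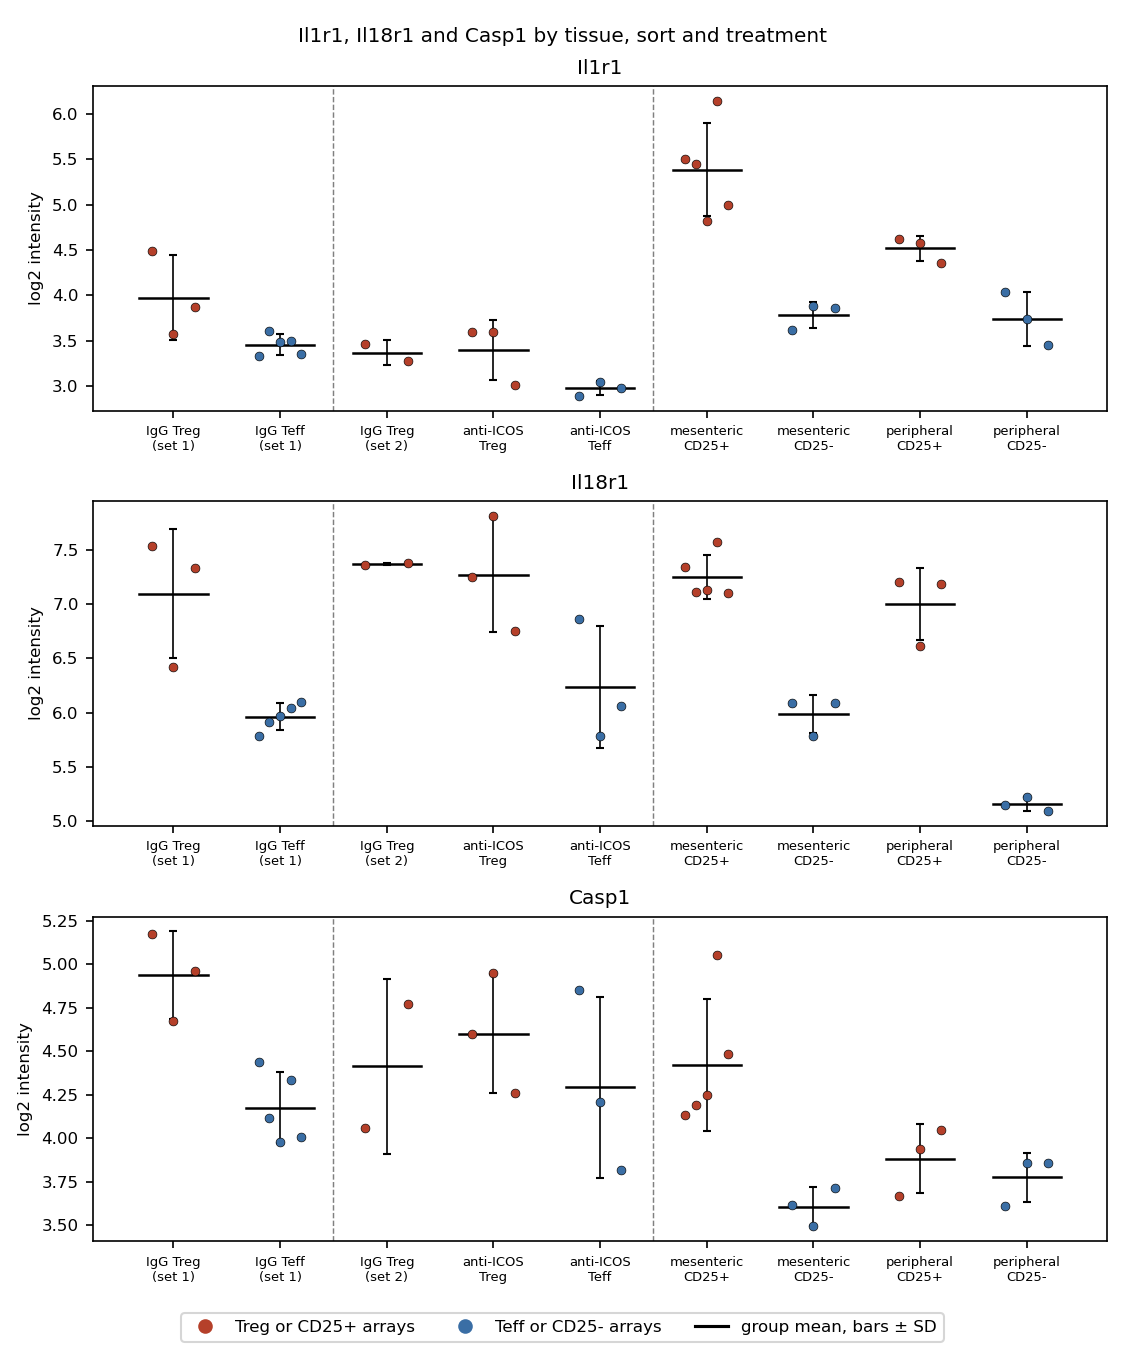
Log2 intensity of Il1r1, Il18r1 and Casp1 in each of the 9 groups. Points are arrays, horizontal lines group means and bars the SD, and dashed lines separate the 3 sets. Il1r1 is highest in mesenteric CD25+ arrays (4.82 to 6.15), Il18r1 is higher in CD25+ than in CD25- arrays of both nodes, and Casp1 separates the sorts in set 1 and in mesenteric nodes without overlap. The sets were normalized separately.

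Treatment with antibody to ICOS gave no member past the test. In Treg cells of set 2, anti-ICOS minus IgG was -0.72 for Il1r2 (95% interval -2.97 to 1.52), 0.03 for Il1r1 (-0.43 to 0.49), -0.10 for Il18r1 (-0.95 to 0.75) and 0.19 for Casp1 (-0.61 to 0.98). The IgG side held 2 arrays, and replicate 1, with Lyz2 at 9.12, came from mice of 4 weeks rather than 26 days. The IgG Treg cells were gated as CD69- and the anti-ICOS ones were not, so treatment cannot be told apart from the gate. Without the anti-ICOS Treg array low in Il2ra, the Il1r2 difference was 0.44. With runs of label numbers as a block it was -3.13 (limma adjusted p = 0.202), which rests on that array, the one anti-ICOS Treg array that shares a run with an IgG Treg array. None of the 12422 probe sets passed by limma, and 425 had an unadjusted p under 0.05. In Teff cells the joint fit gave 0.29 for Il1r2 (-1.07 to 1.65), 0.07 for Il1r1 (-0.34 to 0.48), 0.43 for Il18r1 (-0.18 to 1.04) and 0.46 for Casp1 (-0.04 to 0.96). None of all probe sets passed there either, and 512 had an unadjusted p under 0.05. For Teff cells treatment coincided with the set and could not be told apart from it, and Il1r1 turned to -0.48 when the sets were joined as deposited and to -0.24 when arrays were centred on their medians. All of these intervals include 0, so neither a rise nor a fall of a member was shown at this number of arrays.

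The other genes of the pathway were described by lists, of which 44 genes had a probe set. The counts use the brightest probe set of each gene. In set 1, 1 of the 44 rose and 2 fell, against 3.93% and 2.76% of all probe sets. Their median difference was 0.04 against 0.03 for all probe sets. Casp4, the inflammatory caspase next to Casp1, rose by 0.76 (SE 0.13, limma adjusted p = 0.00744). Like Casp1 it was a low signal, with means of 4.18 in Treg and 3.42 in Teff arrays. Txnip, a thioredoxin-binding protein linked to the inflammasome, fell by 0.59, and Casp2, a caspase of stress-induced death, fell by 0.68. Their other probe sets did not pass, at -0.12 for Txnip (limma adjusted p = 0.624) and -0.32 for Casp2 (limma adjusted p = 0.198). Other probe sets passed for Nfkbia, the NF-kB inhibitor, at 0.76 (limma adjusted p = 0.012) and for 1 of 3 of Casp9, the caspase of the apoptosome, at 0.30 (limma adjusted p = 0.0487). None of the 6 ligands and soluble binders passed. Il1rn, the receptor antagonist, differed by 0.38 (limma adjusted p = 0.0705) and Il1b, the interleukin-1 beta gene, by -0.14 (limma adjusted p = 0.421).

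The partner chains did not pass the test. Il1rap, the accessory chain of Il1r1, differed by 0.10 in set 1, -0.0013 in mesenteric and 0.24 in peripheral nodes. Il18rap, the accessory chain of Il18r1, differed by 0.19, 0.16 and 0.18. No limma adjusted p of these 6 values was under 0.05. The adaptor Myd88 differed by 0.27, 0.34 and 0.23, and did not pass in any of the 3 comparisons.

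In mesenteric nodes 6 of the 44 genes rose and 5 fell, against 4.66% and 7.53% of all probe sets. Their median was -0.0046 against 0.0414 for all probe sets. Of the 16 NF-kB and MAP kinase genes 5 rose: the kinase Map3k8 by 0.93, the inhibitor Nfkbia by 0.90, and the NF-kB subunits Nfkb2 by 0.80, Rela by 0.51 and Relb by 0.45. The other probe sets of 4 of these genes did not pass, at 0.11 for Map3k8, 0.79 for Nfkbia (limma adjusted p = 0.0556), -0.15 for Rela and 0.08 for Relb, and Nfkb2 had no other. Casp4 rose there by 0.95 (SE 0.21, limma adjusted p = 0.0106). The genes that fell were Casp2 (-0.99), the kinase-binding protein Tab3 (-0.96), the ubiquitin ligase Traf6 (-0.79), the kinase Map2k4 (-0.46) and the IKK subunit Ikbkg (-0.37). For Traf6 the probe sets disagreed, since 1 other probe set gave -0.86 and passed (limma adjusted p = 0.0406) and another gave 0.13. The other probe set of Casp2 passed at -0.39 (limma adjusted p = 0.0312), and that of Ikbkg did not, at -0.07.

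In peripheral nodes none of the 44 rose and 4 fell, against 1.8% and 5.89% of all probe sets. Their median was 0.01 against 0.05 for all probe sets. The 4 were Casp2 (-1.05), Tab3 (-0.90), the inflammasome cofactor Nek7 (-0.54) and the kinase Mapk8 (-0.38). The other probe sets of Casp2 (-0.26) and Mapk8 (-0.10) did not pass. Nfkbia differed by 0.61 without passing (limma adjusted p = 0.0809). Between tissues, treatments and node sites, and between sorts under anti-ICOS, none of the 44 genes passed by its brightest probe set.

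**Figure D5:**
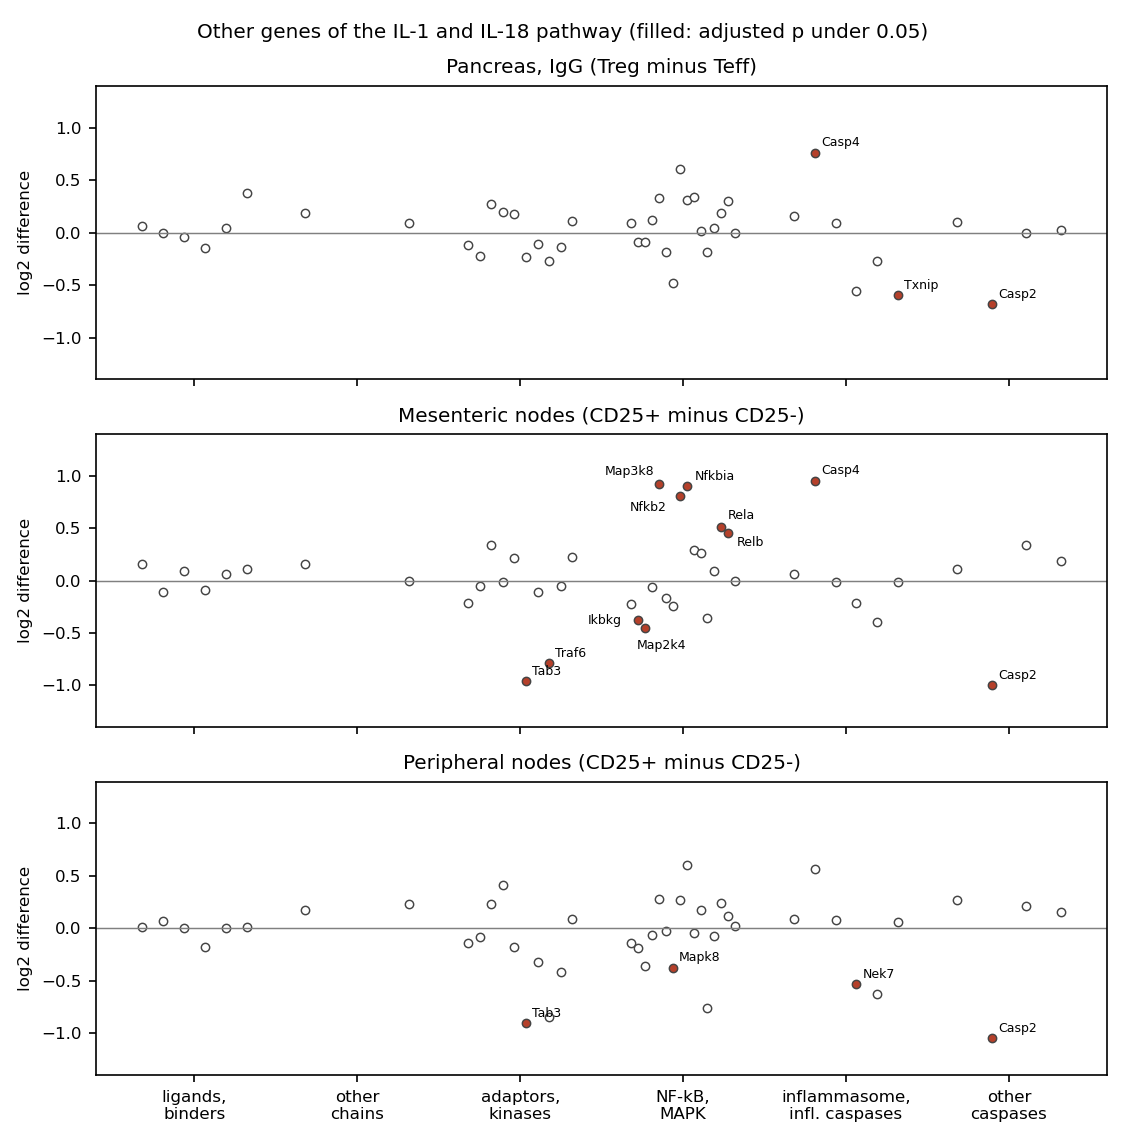
Log2 differences of the 44 other pathway genes by list, for pancreatic Treg minus Teff cells under IgG and for CD25+ minus CD25- cells of mesenteric and peripheral nodes. Each point is a gene, filled and named where it passed. Casp4 stands at 0.76 and 0.95 in the upper panels, 5 NF-kB and MAP kinase genes are raised in mesenteric nodes, and the 6 ligands and binders lie within 0.38 of 0.

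The genes whose profile was most like that of each member were found by Pearson's r over the 8 arrays of set 1 and over the 14 node arrays, ranked by the lower of both. The points share the sort, so all genes that differ between sorts are alike in part. For Il1r2 they were Ndrg1 (0.87), the protease Gzmb (0.86), the ectonucleotidase Entpd1 (0.86), AU020206 (0.85) and Kif20a (0.85). The second Il1r2 probe set had r = 0.96 in set 1 and 0.72 in the nodes. For Il1r1 they were Rnase4 (0.85), Itih5 (0.85) and Il18r1 (0.84). For Il18r1 they were Itih5 (0.92), Trgv1 (0.92) and Mdfic (0.90), and for Casp1 they were Tspan31 (0.90), the inhibitory receptor Pdcd1 (0.89) and Ss18l2 (0.89).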

How the data were processed

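The deposited table of the authors gave a linear intensity for each of 12488 probe sets on 30 arrays, and log2 of it was taken here. Per the submitters' processing notes, set 2 and the node arrays were summarized with RMA. For set 1 the method is not stated in the labels. No detection calls were used. The 66 control probe sets were left out and the other 12422 tested. Controls of the node arrays were reordered by name before the actin ratio was taken. The labels name 2 rounds of RNA amplification for set 1 and the nodes, and no label says that replicates came from separate animals, so p-values reflect only the variation among these samples, which may be technical. Array medians were 32.5 to 34.6 in set 1, 27.9 to 29.8 in set 2 and 25.3 to 27.1 in the nodes.

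Groups follow the titles. Each set was fitted with all its groups in limma 3.58.1 under R 4.3.3 (lmFit and eBayes, two-sided). Joint fits were quantile-normalized first. Adjusted p is Benjamini-Hochberg over 12422 probe sets, with a threshold of 0.05, and intervals are at 95%. For Il1r2 the main probe set is the one brighter on average over all arrays. Named genes were the members, their chromosomal neighbours, the pathway genes past the test and the genes most alike. Some pathway genes that did not pass (among them Il1rn, Il1b, Il1rap, Il18rap and Myd88) and markers of the sort and of macrophages were named as well. The members and lists were chosen with earlier results of these data known. The fits were tested on simulated data. The alternatives tried were other scalings, a filter on low values, robust shrinkage, an actin 3'/5' covariate, runs of label numbers and replicate numbers as blocks, the other probe set, other sides of the tissue contrast and each array left out. Same-numbered anti-ICOS Treg and Teff arrays deviated together (r = 0.589, 0.283 and 0.237). So did same-numbered anti-ICOS and IgG Treg arrays, which differ in treatment (r = 0.541 and 0.621). Differently numbered arrays were not compared, and replicates 2 and 3 of the anti-ICOS sorts lay in different runs. The numbers are therefore not shown to mark pairs. The values given come from the fit without the replicate block, and the fit with it, an alternative, changed no call of a member in set 2.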

Additional observations from a re-analysis of the deposited data

Results flagged for a closer look

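The Treg contrast of Il1r2 differed between tissues by the test of the difference itself. It was 2.32 larger on the log2 scale in the pancreas of IgG-treated mice than in the lymph nodes (SE 0.37, limma adjusted p = 0.00255). The SE pools the spread of all groups and may be too small, since the pancreatic Treg arrays spread most. Each of the 3 pancreatic Treg arrays lay above all pancreatic Teff arrays. The second probe set gave 1.08 (limma adjusted p = 0.0739). Tissue, gate, treatment and set of records cannot be told apart.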

How the results depend on the processing

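With the actin 3'/5' ratio as a covariate, Il1r2 in set 1 was 2.74 (limma adjusted p = 0.0909), Casp1 in set 1 0.94 (0.143), Il1r2 in peripheral nodes 1.00 (0.0953) and Casp1 there -0.0202. With runs of label numbers as a block, Il1r2 under anti-ICOS was 3.35 (0.0219), and Treg anti-ICOS minus IgG was -3.13 for Il1r2, -0.63 for Il18r1, -0.26 for Il1r1 and -0.51 for Casp1. The Teff value of Il1r1 was -0.0172 with that block, -0.48 joined as deposited and -0.24 median-centred. With IgG Treg cells of both sets joined, Treg anti-ICOS minus IgG was -0.0405 for Il1r1 and 0.0447 for Il18r1. With the replicate block, which changed no other call of a member, the Il1r1 difference in peripheral nodes was 0.78 (0.0116) and Il18r1 in Treg anti-ICOS minus IgG 0.07. Same-numbered CD25+ and CD25- arrays had r of 0.161, 0.026 and 0.323 in mesenteric and 0.230, 0.015 and 0.144 in peripheral nodes, all positive. Between the nodes, same-numbered arrays of the same sort had r from -0.003 to 0.508. The block lowered the mesenteric count from 1514 to 832. The second Il1r2 probe set gave 0.36 in peripheral nodes (0.226), -0.13 between nodes in CD25- cells and 1.08 between tissues (0.0739). With set 2 as the pancreatic side, the tissue difference was 1.62 for Il1r2 (0.67) and -0.22 for Casp1, or -0.0669 for Casp1 without anti-ICOS Treg replicate 3, and with mesenteric nodes alone it was -0.0696 for Casp1.

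With 1 array left out, the ranges were 0.27 to 0.72 for Il1r1 in set 1, 1.39 to 3.49 for Il1r2 under anti-ICOS, 0.66 to 0.89 for mesenteric Casp1, 0.73 to 1.08 for peripheral Il1r2 and 0.63 to 0.92 for peripheral Il1r1. In Treg anti-ICOS minus IgG they were -1.66 to 0.44 for Il1r2, -0.93 to 0.37 for its second probe set, -0.0671 to 0.22 for Il1r1, -0.37 to 0.16 for Il18r1 and -0.17 to 0.54 for Casp1. Between nodes in CD25- cells they were -0.10 to 0.19 for Il1r1 and -0.22 to 0.0446 for the second Il1r2 probe set, which in the node interaction ranged from -0.25 to 0.0477. The causes were not tested.

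The number of probe sets past the test also moved. In set 1 it was 831, 86 with the actin covariate and 450 to 1000 with 1 array left out. Under anti-ICOS it was 0, 15 with runs as a block and up to 12 with 1 array left out, and for Treg anti-ICOS minus IgG 0, 3 and up to 35. For Teff cells it was 0, 4390 as deposited, 1870 median-centred and 1 with robust shrinkage. In nodes it was 743 to 1878 in mesenteric and 531 to 1462 in peripheral contrasts with 1 array left out, with 955 peripheral calls falling to 267 under the actin covariate. Between nodes it was 9, 5 with actin and 2 to 21 in CD25+ cells, and 1, 0 with the filter and 2 with robust shrinkage or the replicate block in the interaction. Between tissues it was 258, 56 with actin, 166 and 52 with mesenteric or peripheral nodes alone, 4 with set 2, 8 without its Treg replicate 3, and 160 to 449 with 1 array left out. The number of arrays limits the precision.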
